A study of Mus musculus with 6 samples.

Results

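Stress-inducible transcription factors of the Atf, Nr4a and Klf families were followed in mouse satellite cells, which are the resident stem cells that rebuild muscle fibres. The 10 genes are Atf3, Atf4, Ddit3, Nr4a1, Nr4a2, Nr4a3, Klf2, Klf4, Klf6 and Ier2. They were taken as all non-control probes whose gene name in the array files is exactly one of these names. This gave 12 probes on 21 spots, among 55681 probes in all, and each of the 10 genes passed the filter on dim probes and so was among the 32084 genes tested. The cells came from male C57BL/6 mice with no treatment named, and the labels name no transgene or mutation. The 3 young samples were from mice of 3, 2 and 3 months (replicates 1, 2 and 3) and the 3 adult samples from mice of 6 months. Cells had been sorted for integrin alpha7 and CD34 and against CD31, CD45, CD11b and Sca1. Each sample went on 1 single-colour Agilent array after amplification of its RNA, and the samples are labelled biological replicates without the number of mice in each. The p-values below measure the spread between these samples.

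These factors are switched on quickly when cells meet stress, growth factors or signals that raise cyclic AMP. Atf4 is made when the kinases of the integrated stress response phosphorylate the initiation factor eIF2alpha, largely through translation of its existing mRNA, and it acts on genes of amino acid supply and on Atf3 and Ddit3 (CHOP). The Nr4a genes encode orphan nuclear receptors without a known classical ligand, whose activity depends mainly on how much of them is made, and CREB bound at cyclic AMP response elements (CRE) is a known inducer of them. Klf2, Klf4 and Klf6 are zinc finger factors that bind GC-rich and CACCC sequences. Several of these genes are also known to be induced while tissue is being dissociated.

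The stretches of 250 bases before the annotated starts of the genes that rose, and of Nr4a1 as the remaining Nr4a gene, are shown because those of the Nr4a genes hold the same number of CRE cores, at different positions. The sequences are those of RefSeq on mouse build GRCm38.p6, read on the strand of the gene, and 9 of the 10 genes matched an entry. Capitals mark the CRE core TGACG on either strand (CGTCA on the opposite one) and, in Atf3 only, a C/EBP-ATF composite site (TGATGNAAN, here on the opposite strand).
Nr4a1 (chr15:101266596-101266845, + strand): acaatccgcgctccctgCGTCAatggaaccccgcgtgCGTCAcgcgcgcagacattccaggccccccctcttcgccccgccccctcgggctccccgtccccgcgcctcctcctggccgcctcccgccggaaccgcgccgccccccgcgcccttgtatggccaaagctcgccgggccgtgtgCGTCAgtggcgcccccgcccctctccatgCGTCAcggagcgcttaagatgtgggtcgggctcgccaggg
Nr4a2 (chr2:57124004-57124253, - strand): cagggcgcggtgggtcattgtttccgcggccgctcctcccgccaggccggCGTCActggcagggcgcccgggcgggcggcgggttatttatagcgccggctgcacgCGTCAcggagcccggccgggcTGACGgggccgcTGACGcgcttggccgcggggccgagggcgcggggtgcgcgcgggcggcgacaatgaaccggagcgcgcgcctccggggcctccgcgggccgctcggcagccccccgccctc
Nr4a3 (chr4:48045055-48045304, + strand): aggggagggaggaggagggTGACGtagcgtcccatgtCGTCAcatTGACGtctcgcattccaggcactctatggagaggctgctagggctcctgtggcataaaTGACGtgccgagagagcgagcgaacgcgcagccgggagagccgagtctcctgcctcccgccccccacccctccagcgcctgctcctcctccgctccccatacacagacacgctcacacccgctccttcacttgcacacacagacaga
Atf3 (chr1:191183334-191183583, - strand): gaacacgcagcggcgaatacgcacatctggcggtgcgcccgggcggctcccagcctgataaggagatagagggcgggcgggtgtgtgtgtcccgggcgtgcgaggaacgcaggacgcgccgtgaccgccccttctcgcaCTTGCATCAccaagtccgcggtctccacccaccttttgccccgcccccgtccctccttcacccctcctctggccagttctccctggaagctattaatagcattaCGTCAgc

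Each of the 3 Nr4a stretches held 4 CRE cores. At least 4 were found in 0.137% of the 32851 stretches of the same length in the table, and in 0.37% of the 9178 with a GC content of 60% or more. The 3 stretches have GC contents of 74.4% (Nr4a1), 80.0% (Nr4a2) and 63.6% (Nr4a3), against a median of 52.4%. One core each was found before Atf3, Atf4, Klf2 and Klf4 and none before Ddit3 and Klf6. At least 1 core was thus in 7 of 9 stretches, against 17.8% of all stretches and 27.1% of the GC-rich ones. The composite site was in 1 of 9 (3.44% of all stretches) and the GC box GGGCGG in 7 of 9 (32.7%). The share of GC-rich stretches with a GC box was not counted, and the 9 stretches had GC contents from 59.2% (Atf4) to 80.0% (Nr4a2). The full palindromic CRE TGACGTCA (1.55% of all stretches), the CArG box of serum response factor (1.47%), the Nr4a site AAAGGTCA (1.34%) and the CACCC box CCACACCC (3.20%) were in 0 of 9, and TATAAA in 1 of 9 (12.4%). These are counts of letters on both strands within 250 bases, and the core lies inside the full CRE.

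**Figure D1:**
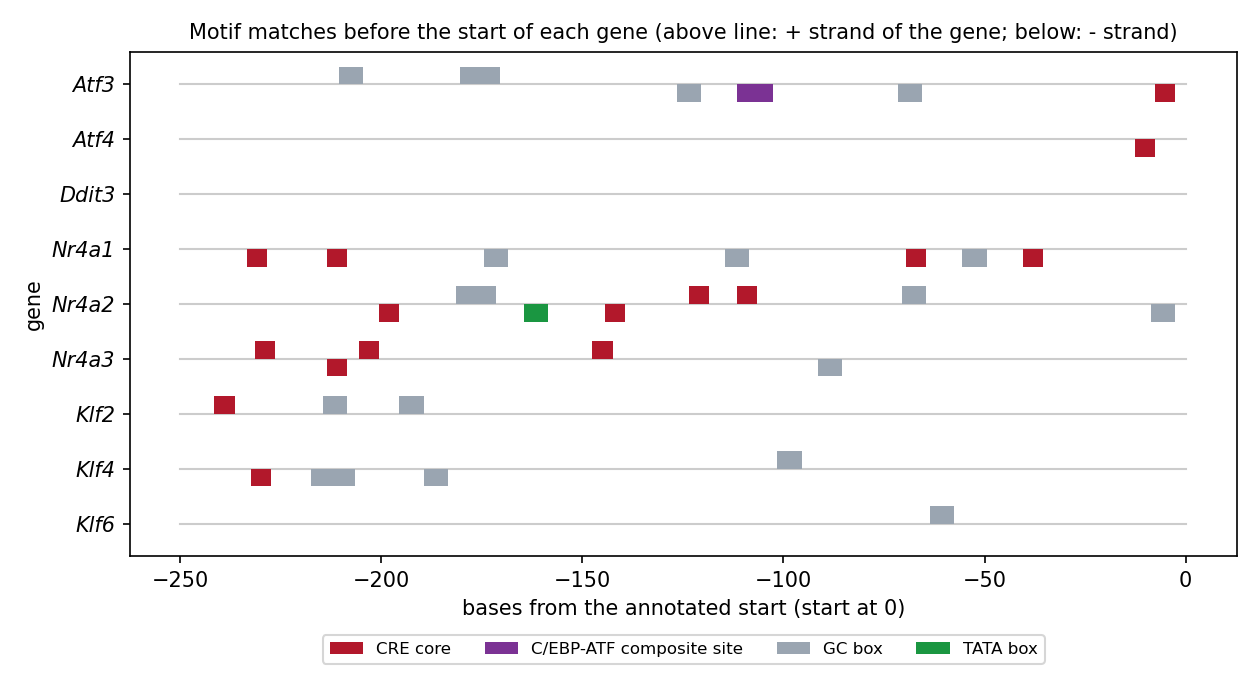
Positions of motif matches in the 250 bases before the annotated start of 9 of the genes, with the distance from the start in bases on the x axis and a gene per line. Marks above a line are on the gene's own strand and marks below it on the opposite strand. The 3 Nr4a genes carry 4 CRE cores each.

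Signals are given as log2 levels relative to the 75th percentile of the probes of the same array, so that 0 is the 75th percentile, and differences are adult minus young. Between 41531 and 45929 probes were well above background on the young arrays and between 47585 and 49965 on the adult arrays, and no spot was saturated. Over all genes the median difference was 0.30, but the 17340 genes with an established symbol had a median of -0.03. In 4 equal classes by mean level the median difference ran from 1.44 in the dimmest through 0.55 and -0.05 to -0.31 in the brightest. All 15 satellite cell markers looked at, Pax7 among them, were well above background on every array.

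Of the members Atf3, Nr4a2 and Nr4a3 rose, by factors of 2.02, 3.04 and 2.92, and 7 members, Klf4 and Nr4a1 among them, did not pass the test (limma, adjusted p under 0.05 over all genes). None passed in the other direction. This share of the 10 members is 30.0%, where 20.0% of all genes were called higher in adult, 8.50% lower, and 14.6% of genes with an established symbol higher, so the share of members called lies near that background. Under median scaling the balance of all genes turned, with 3446 of the 32084 genes higher and 8822 lower. At an unadjusted p under 0.05 there were 5 members, all higher, where 48.1% of all genes passed in either direction and 31.8% as higher. Differences were positive for 9 members, against 59.4% of all genes, and negative for Atf4, with a median of 0.74 and a range from -0.28 to 1.60. In 6 members every adult array lay above every young array, as in 34.0% of all genes.

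**Figure D2:**
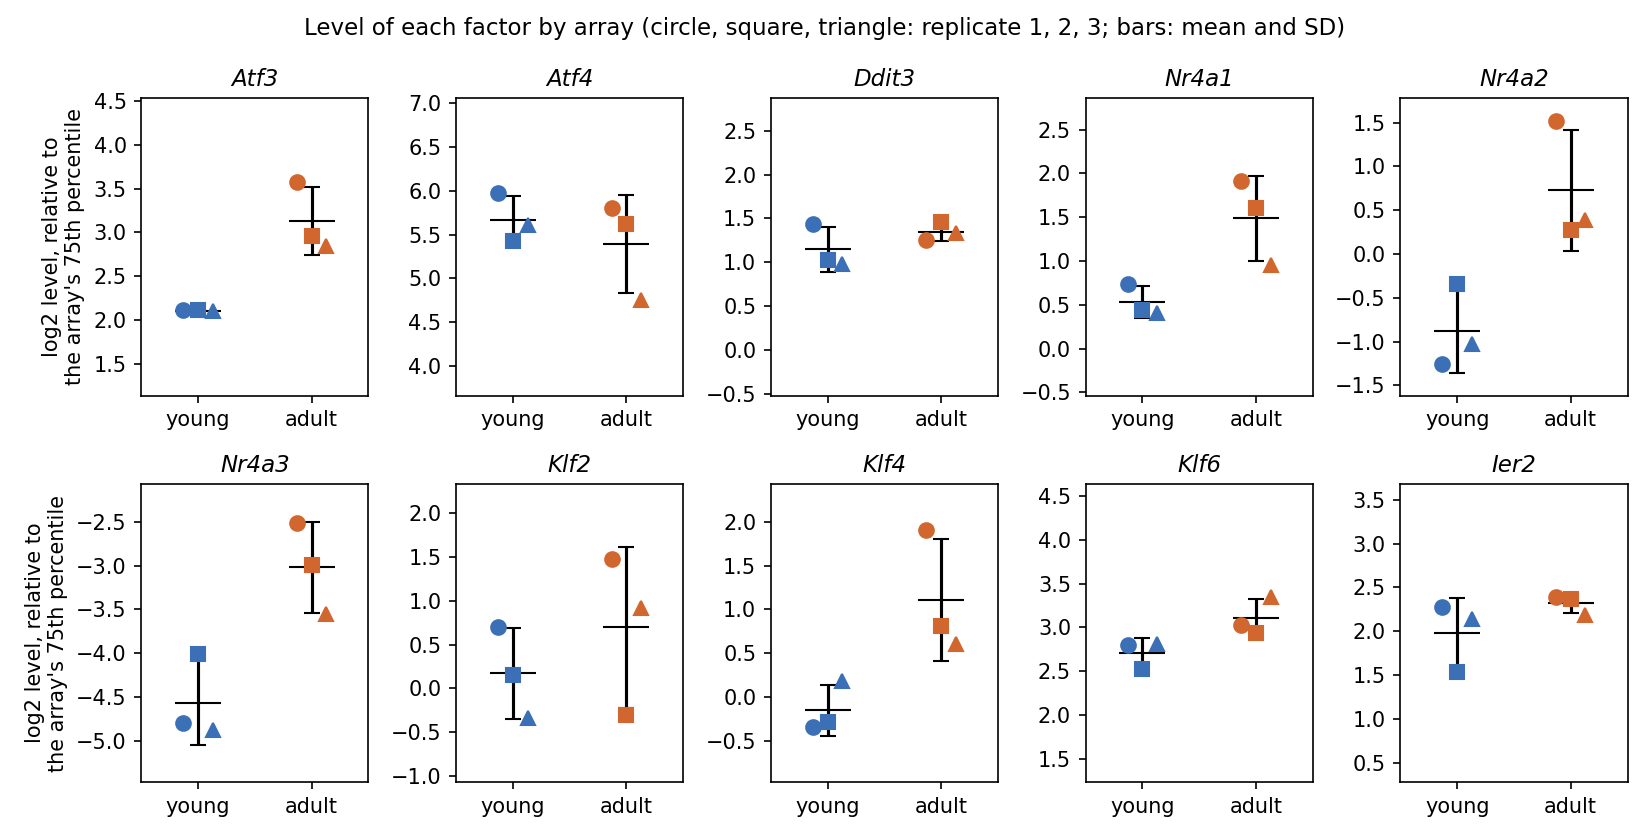
Level of each factor on each array, on the log2 scale set by the 75th percentile of its array (y axis, every panel spans the same range of log2 units), in young and adult samples (x axis). Symbols are replicates 1, 2 and 3 and bars the mean and SD of 3 arrays. Atf3, Nr4a1, Nr4a2, Nr4a3, Klf4 and Klf6 have every adult array above every young one, and adult replicate 1 is the highest adult array for 8 of the 10.

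The 3 Nr4a receptors had higher levels on every adult array than on any young array, as did 34.0% of all genes. Nr4a2, also known as Nurr1, was measured by a pair of probes on chromosome 2 of mouse build mm9, from 56960699 to 56960758 and from 56959637 to 56959696. By the brighter probe its level was -1.26, -0.34 and -1.03 in young replicates 1 to 3, and it was 1.52, 0.27 and 0.39 in adult replicates 1 to 3. The groups were parted by 0.61, with the youngest sample, young replicate 2, the highest of its group, and adult replicate 1 standing above the other adult arrays. The means were -0.87 ± 0.48 and 0.73 ± 0.69 (SD, n = 3 each), a difference of 1.60 ± 0.42 SE (limma adjusted p = 0.0406). The dimmer probe gave -4.12, -3.06 and -3.79 in young and -1.72, -2.57 and -1.99 in adult. The probes thus agreed in size, at 1.56 ± 0.37 SE for the dimmer one (adjusted p = 0.0363 with every probe tested on its own). Both were well above background on all 6 arrays, but the dimmer one had low processed signals. These were 31.8, 79.6 and 55.5 in young and 164, 105 and 134 in adult. Nr4a2 passed in 10 of 13 alternatives that kept all arrays and in 1 of 6 that left an array out (adjusted p from 0.0147 to 0.10).

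Nr4a3, or Nor1, was among the dimmest genes and carries the only replicated probe of the group, printed on 10 spots of each array. The probe is given at chromosome 4 (mm9) from 48080690 to 48083876, a span of 3187 bases for a probe of 60, so its ends lie in separate stretches of the genome. The mean over spots was -4.80, -4.01 and -4.88 in young replicates 1 to 3, against -2.51, -2.99 and -3.55 in adult replicates 1 to 3. No adult array reached down to the young ones, and adult replicate 3 came nearest, at a distance of 0.46 from young replicate 2. The group means were -4.56 ± 0.48 and -3.02 ± 0.52 (SD, n = 3 each), and the difference was 1.55 ± 0.37 SE (limma adjusted p = 0.0334). Spots of an array differed with an SD of 0.23 on average, less than the SD of 0.48 between young arrays and 0.52 between adult arrays. Of the 30 spots in each group 24 were well above background in young and 30 in adult, and on young array 1 there were 4 of 10. The probe was therefore well above background on 2 of 3 young arrays, which leaves the size of the rise uncertain. It belongs to the dimmest level class, in which the median difference of 1.44 was close to its own and 31.9% of genes were called higher. The processed signals behind these levels were low, with medians over spots of 18.4, 42.7 and 27.2 in young and 94.1, 77.2 and 48.0 in adult. The call was lost when the arrays were aligned across all signal levels, where the difference was 0.47 with quantile normalization, 0.46 with cyclic loess and 0.23 in the deposited series matrix values (adjusted p = 0.384, 0.355 and 0.384, and from 0.0235 to 0.384 over the alternatives).

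**Figure D3:**
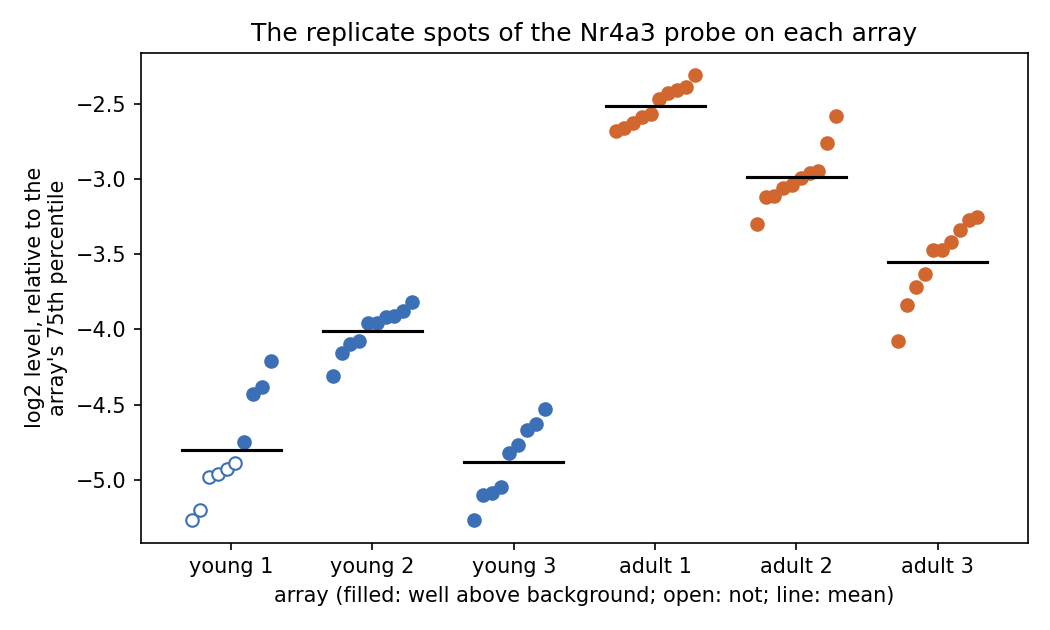
Level of each spot of the Nr4a3 probe (y axis, log2 scale, 0 at the 75th percentile of the array) on each of the 6 arrays (x axis), 10 spots per array, with 1 spot of young array 3 left out as an outlier. Lines are array means, filled circles are spots well above background and open circles are not. Spots of an array scatter less than the arrays of a group, and 6 of the 10 spots on young array 1 are open.

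Nr4a1 (Nur77), probed on chromosome 15 from 101105071 to 101105130, had levels of 0.74, 0.44 and 0.41 on the young arrays and 1.91, 1.60 and 0.95 on the adult arrays. The groups did not overlap, although adult replicate 3 lay 0.21 above young replicate 1. The means were 0.53 ± 0.18 and 1.48 ± 0.49 (SD, n = 3 each), and the difference of 0.95 ± 0.29 SE, or 1.94-fold, missed the threshold (limma adjusted p = 0.0545). Without scaling, the processed signals were 923, 904 and 1020 in young and 2030, 1880 and 1020 in adult, so that adult replicate 3 equalled young replicate 3. Nr4a1 passed in 8 of 13 alternatives that kept all arrays and in 0 of 6 that left an array out (adjusted p from 0.0176 to 0.331).

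Among the factors of the integrated stress response Atf3 rose, while Atf4 and Ddit3 did not pass the test. Atf3 is a repressor and activator of the basic leucine zipper class that many kinds of stress induce. Its probe lies on chromosome 1 (mm9) from 192994547 to 192994606. Levels were 2.11, 2.11 and 2.10 on the young arrays and 3.57, 2.96 and 2.85 on the adult arrays. The young arrays were nearly equal, and the adult ones lay at least 0.73 above them and varied more. With means of 2.11 ± 0.01 and 3.12 ± 0.39 (SD, n = 3 each), the difference was 1.02 ± 0.24 SE (limma adjusted p = 0.0333). Atf3 belongs to the brightest level class, in which 10.3% of genes were called higher and the median difference was -0.31. Leaving out any single array lost the call, with differences of 0.80 to 1.16 and adjusted p from 0.0611 to 0.0797, and it passed in 11 of the 13 alternatives that kept all arrays.

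Atf4 had a pair of probes on chromosome 15 (mm9), from 80086639 to 80086698 and from 80087902 to 80087961. By the brighter probe the levels were 5.97, 5.43 and 5.61 in young and 5.80, 5.62 and 4.75 in adult. The groups overlapped, and adult replicate 3 was the lowest array. The difference was -0.28 ± 0.33 SE with a 95% interval from -1.09 to 0.53 (limma adjusted p = 0.519). The dimmer probe, at 3.60, 3.56 and 3.60 against 4.05, 3.74 and 3.08, differed by 0.04 ± 0.29 SE. On both probes adult replicate 3 was the lowest of the 6 arrays, and without it the brighter probe differed by 0.04. Ddit3, which encodes CHOP, a factor of prolonged endoplasmic reticulum stress, had levels of 1.44, 1.02 and 0.98 in young and 1.25, 1.46 and 1.33 in adult. Its groups overlapped, and the difference was 0.20 ± 0.20 SE with a 95% interval from -0.30 to 0.70 (adjusted p = 0.463). Its probe is given at chromosome 10 from 126732518 to 126732821, again a span longer than the probe.

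**Figure D4:**
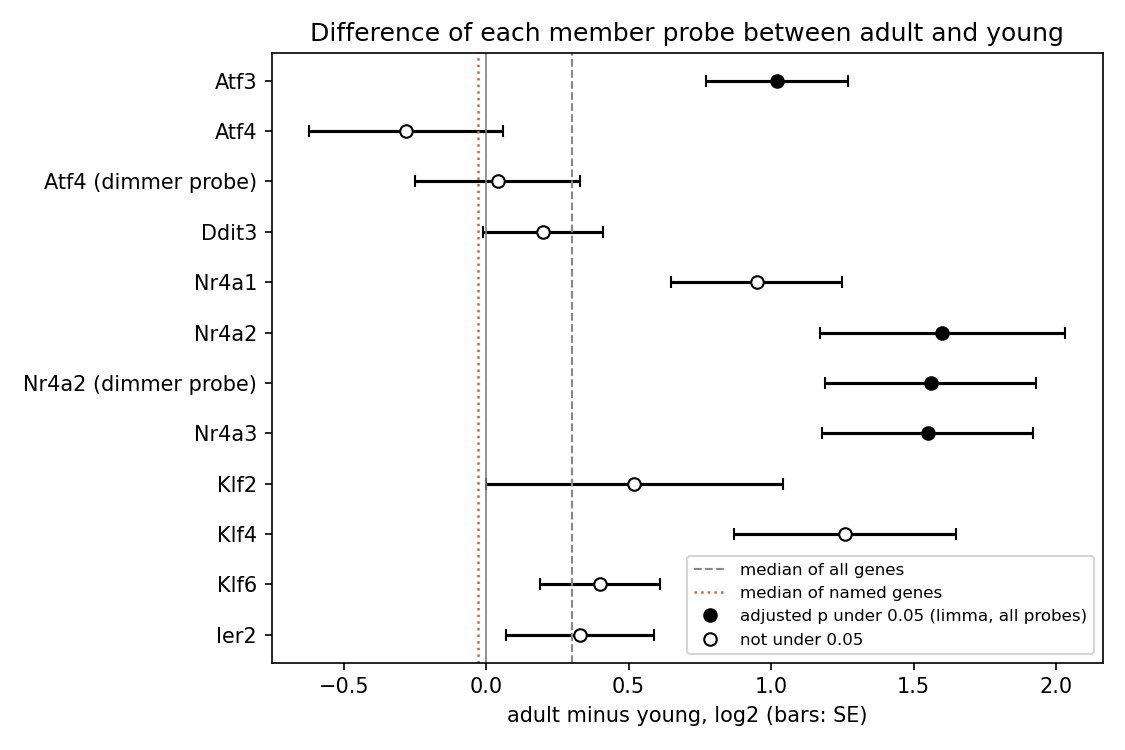
Adult minus young on the log2 scale (x axis) for each of the 12 probes (y axis), with bars of 1 SE. Filled circles have an adjusted p under 0.05 with every probe tested on its own, and lines mark the median of all genes (0.30) and of genes with an established symbol (-0.03). Both Nr4a2 probes, Nr4a3 and Atf3 are filled, and the brighter Atf4 probe is the only one below 0.

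Of the Klf factors, Klf4 stood apart between the groups without passing the test, and Klf2 and Klf6 differed less. Klf4, a factor of quiescence and of reprogramming to pluripotency (chromosome 4 from 55540167 to 55540226), had levels of -0.35, -0.29 and 0.18 on the young arrays and 1.90, 0.81 and 0.60 on the adult arrays. The groups were parted by 0.42, and adult replicate 1 was far above the others. The difference was 1.26 ± 0.39 SE, or 2.39-fold (limma adjusted p = 0.0553), with means of -0.15 ± 0.29 and 1.10 ± 0.70 (SD, n = 3 each). It passed in 6 of 13 alternatives that kept all arrays and in 0 of 6 that left an array out (adjusted p from 0.018 to 0.207). Klf6, a broadly expressed factor induced by injury (chromosome 13 from 5869371 to 5869430), had levels of 2.80, 2.52 and 2.81 in young and 3.03, 2.94 and 3.35 in adult. Its groups were parted by 0.14, and the difference of 0.40 ± 0.20 SE did not pass (adjusted p = 0.161). Klf2, known from quiescent T cells and from endothelium under flow (chromosome 8 from 74845137 to 74845196), varied most within groups. Its levels were 0.70, 0.15 and -0.34 in young and 1.48, -0.31 and 0.92 in adult, and adult replicate 2 lay below 2 of the 3 young arrays. The difference was 0.52 ± 0.52 SE with a 95% interval from -0.74 to 1.79 (adjusted p = 0.441).

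Ier2, an immediate early gene of no zipper or zinc finger family, was probed on chromosome 8 from 87186214 to 87186273. Its levels were 2.28, 1.53 and 2.14 in young and 2.39, 2.37 and 2.19 in adult. The groups overlapped, and young replicate 2 was the lowest array. The difference was 0.33 ± 0.25 SE with a 95% interval from -0.28 to 0.94 (limma adjusted p = 0.318), close to the median of all genes.

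Adult replicate 1 was the highest adult array for 8 of 10 members, all but Ddit3 and Klf6, and adult replicate 3 was the lowest for 6. In the young group replicate 1 was highest for 6 members and replicate 3 lowest for 5, and Nr4a2 and Nr4a3 were highest in replicate 2. Without adult replicate 1 the differences of Nr4a2, Klf4 and Atf3 were 1.21, 0.86 and 0.80, and 0 members passed (limma, 5 at an unadjusted p under 0.05). Of all 32084 genes 488 passed there. Without adult replicate 2 or 3, or young replicate 1 or 3, 0 members passed as well (4 or 5 at an unadjusted p under 0.05). In those fits 660, 299, 1348 and 2370 of all genes passed. Without young replicate 2, the only sample of 2 months, Nr4a2 (1.87) and Nr4a3 (1.83) passed, as did 7681 of all genes.

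Of 16 genes around eIF2alpha, its kinases and its phosphatase, 1 was higher, 3 were lower and 12 did not pass (median difference -0.50). These are 6.25% higher and 18.8% lower, against 20.0% and 8.50% of all genes. In the brightest level class 10.3% were higher and 19% lower, with a median of -0.31. The higher one was Ppp1r15a (GADD34), the stress-induced subunit of the phosphatase that reverses the modification, at 1.10 ± 0.27 in young and 1.91 ± 0.01 in adult (SD, n = 3 each, limma adjusted p = 0.0355). Eif2s1, which encodes eIF2alpha itself, was 1.67-fold lower, Eif2ak1, its heme-regulated kinase, 1.85-fold, and Eif2b2, a subunit of its exchange factor, 1.51-fold (adjusted p = 0.0325, 0.0358 and 0.0461). Of 32 tested targets of ATF4 and CHOP 2 were higher (6.25%), 3 were lower (9.38%) and 27 did not pass (median -0.09). Gdf15, a stress-induced cytokine, was 2.70-fold higher and Cth, an enzyme of cysteine synthesis, 1.81-fold higher, while Psat1, of serine synthesis, fell by 1.96 and Gars, a tRNA synthetase, by 0.93 on the log2 scale (adjusted p = 0.0246, 0.0352, 0.0174 and 0.0429). Under median scaling 9 genes of the eIF2alpha list were lower and 0 higher, and 11 of the targets were lower and 1 higher.

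Of 25 genes of the unfolded protein response of the endoplasmic reticulum 10 were lower in adult, 0 higher and 15 did not pass, with a median of -0.62 (limma, 0 higher also under each alternative). This is 40.0% lower against 8.50% of all genes. Of the list 15 genes lay in the brightest level class, and 7 of these were lower (46.7%), against 1525 of the 8021 genes of that class. Most of the 10 encode chaperones and folding enzymes of that compartment. Pdia6, a disulfide isomerase, was 2.23-fold lower, Manf, a secreted stress protein, 2.35-fold, Atf6b, a membrane-bound factor related to ATF6, 2.20-fold, and Calr, the chaperone calreticulin, 2.06-fold (adjusted p = 0.0187, 0.0197, 0.0217 and 0.0219). Hspa5, the chaperone BiP that is the usual marker of this response, stood at -0.10 ± 0.20 SE, Xbp1 at -0.37 ± 0.21 SE and the sensor Ern1 at 0.04 ± 0.21 SE, and none of these passed (adjusted p = 0.708, 0.204 and 0.882). The list also holds Crip1, which is not known for this response and did not pass. Between 6 and 16 of the 25 were lower in the alternatives that kept all arrays without the replicate block, and between 0 and 6 with an array left out.

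Calls among the relatives of the members stand beside 20.0% of all genes called higher and 8.50% called lower. In the brightest level class these shares were 10.3% and 19%. The higher and lower shares were 15.6% and 9.38% for other nuclear receptors and 9.09% and 18.2% for the ERK5 route. They were 0% and 15.8% for other ATF, CREB and C/EBP factors, and 0% and 16.7% for the CREB route. Of 12 other Klf genes tested 0 passed (limma, 1 at an unadjusted p under 0.05, Klf16, at 0.59 ± 0.18 SE), with a median of 0.22, and Klf3 stood at -0.67 ± 0.28 SE. Of 19 other ATF, CREB and C/EBP factors 3 were lower and 0 higher (median -0.40), namely Atf6b, Cebpa, 2.09-fold, and Creb3l2, 1.49-fold. Of 32 other nuclear receptors 5 were higher and 3 lower (median -0.07). Nr5a2, 4.35-fold, and Nr1h3, the oxysterol receptor LXR alpha, 2.01-fold, were among the higher ones, and Rara, a retinoic acid receptor, was 2.68-fold lower. Among 18 genes of the CREB route 0 were higher and 3 lower (median -0.16), the protein kinase A subunits Prkaca, 1.89-fold, and Prkar1a, 2.45-fold, and the kinase Sik3, 1.63-fold. In the ERK5 route, which is known to induce Klf2 and Klf4, 1 of 11 was higher and 2 were lower (median -0.48), with Mef2c 3.17-fold higher, the kinase Map2k5 1.78-fold lower and Krit1, an adaptor that restrains this route in endothelium, 2.02-fold lower. Of 32 other immediate early genes 26 had positive differences and 0 passed (limma, median 0.54). Jun, at 0.73 ± 0.22 SE, and Maff, at 0.91 ± 0.30 SE, had the smallest p among them (adjusted p = 0.0506 and 0.0662), and in the alternative with most calls, the series matrix values, 8 were higher and 1 lower.

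Markers of cells that the sort was meant to remove were measured beside these results. In such bulk samples fewer cells of a type and less RNA per cell cannot be told apart. Of 15 leukocyte markers tested all had positive differences and 5 were higher (33.3%), and 10 of 16 on the array were well above background on all 6 arrays. Tyrobp of myeloid cells was not well above background on any young array and was so on all 3 adult arrays, at least 31.2-fold higher (limma adjusted p = 0.0158). The summed linear signal of the leukocyte list ranged from 221 to 426 times the 75th percentile on young arrays and from 379 to 403 on adult arrays. Of 13 endothelial markers 0 passed (limma, 1 at an unadjusted p under 0.05, Esam, at 1.09 ± 0.41 SE), with Cldn5 at 1.03 ± 0.44 SE, and the sum lay between 20.5 and 31.8 in young and 20.5 and 28.8 in adult. Differences were positive for 4 of these 13 and negative for 9, with a median of -0.29. Of 12 mural cell markers 6 were higher and 1, Acta2, lower, with Kcnj8 higher by 3.58 ± 0.39 SE, and sums of 69.2 to 87.6 and 78.0 to 84.4. Fibro-adipogenic sums were lower in adult (35.9 to 50.3 against 83.5 to 90.3, with Pdgfra not well above background on any array), as were myofibre sums (19.6 to 25.2 against 36.0 to 52.3). Of 11 fibro-adipogenic markers 2 were higher, Pi16 and Clec3b, and 2 were lower, Col3a1 among them. Differences were negative for 7 of these 11 (median -0.62). Of 12 myofibre markers 1 was higher and 4 were lower, Ryr1 and Atp2a1 among them. Here differences were positive for 7 of the 12 (median 0.11). Satellite cell markers were lower for 5 of 15, Itga7 and Msc among them, and 0 were higher, with sums of 180 to 206 in young and 124 to 170 in adult. Of 7 Schwann cell markers 1 was lower, Ngfr, next to Pmp22 at -0.55 ± 0.22 SE. Of 4 erythroid markers 0 passed (limma, 1 at an unadjusted p under 0.05, Slc4a1, at 1.25 ± 0.43 SE), with Hba-a1 at 2.04 ± 1.55 SE and the erythroid sum between 1.52 and 67.4 on the young arrays. A sum is weighted to the brightest genes of its list. In the leukocyte list this was Itgam, at 8.18 in young and 8.56 in adult. In the mural, fibro-adipogenic and myofibre lists they were Notch3 (5.78 and 5.63), Col3a1 (6 and 4.87) and Atp2a1 (4.96 and 3.86). In the endothelial list it was Tek (4.08 and 3.93). Such sums thus rest on few genes. With an array left out, the calls on each of these marker lists fell to 0 in at least one case, apart from the lower Acta2. The part of these cells in the levels of the members was not tested.

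The genes whose levels followed a member most closely over the 6 arrays were found among 17339 others with an established symbol, for the 9 members above background on all arrays. Pearson correlations, which include the difference between groups, lay between 0.975 and 0.998 for the best pair of each member and are a description only. Adora2a, a receptor that raises cyclic AMP, and Sp4 were nearest to Atf3 (0.998 and 0.996), Aqp11 and Otulinl to Nr4a2 (0.998 and 0.995), and Amz1 and Cfhr2 to Nr4a1 (0.998 and 0.996). Armh1 and the chemokine gene Ccl11 were nearest to Klf4 (0.995 and 0.991), Peg10 and Vmn1r210 to Klf2 (0.978 and 0.975), Awat2 and Slc9a3r2 to Klf6 (0.995 and 0.993), and Elf5 and Ggcx to Ier2 (0.986 and 0.983). Atf4 was nearest to Avpi1 and Armh3 (0.997 and 0.992) and Ddit3 to Hgf and Olfr849 (0.982 for both). No member was among the 2 nearest genes of another. Only those 2 of the 17339 were kept for each member, so this cannot decide whether members vary together.

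Atf3, Nr4a1, Nr4a2, Nr4a3 and Klf4 had positive differences under every alternative, with ranges of 0.48 to 1.31, 0.41 to 1.22, 1.06 to 1.87, 0.23 to 1.83 and 0.72 to 1.51. Ddit3, Klf2, Klf6 and Ier2 turned negative under median scaling, which moved the median of all genes from 0.30 to -0.24, and there 0 members passed (limma, 2 at an unadjusted p under 0.05). That scaling moved every member by the same -0.54 and so left their places among the other genes as they were. Of the 10 members 8 lay above the median of all genes as reported, against 6 with no filter or without adult replicate 1, 7 with normexp and 9 with quantile normalization. With the replicate number as a block 0 members passed (limma, 5 at an unadjusted p under 0.05), as did 0 of all genes.

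**Figure D5:**
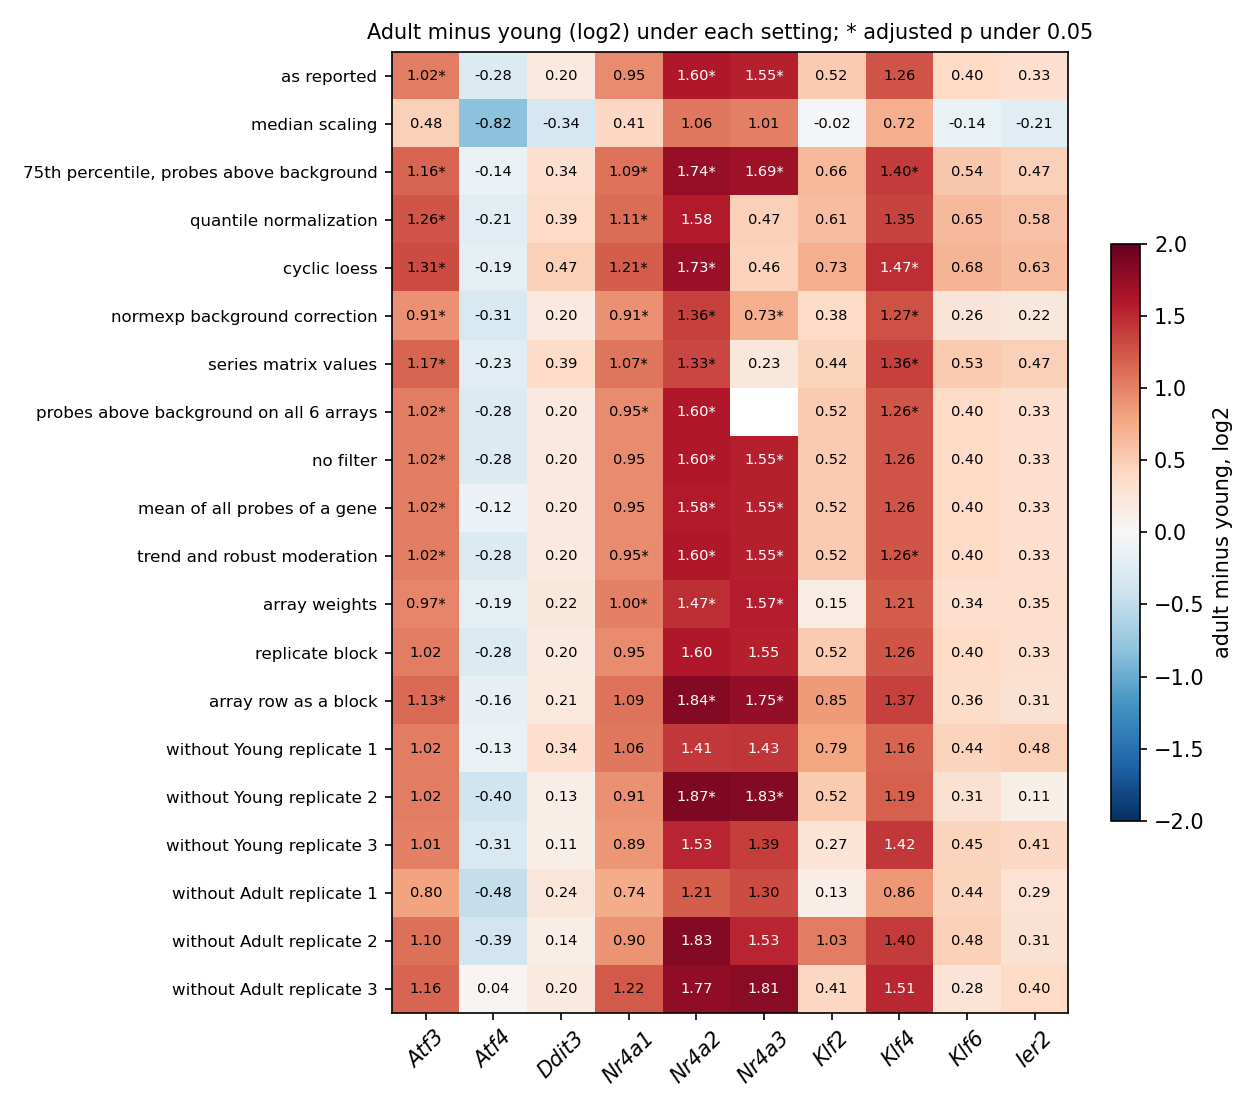
Adult minus young on the log2 scale (colour and number) for each member (columns) under each way of processing the arrays (rows), with a star where the adjusted p is under 0.05. The blank cell is Nr4a3 where only probes above background on all 6 arrays were kept. Stars sit on Atf3, Nr4a1, Nr4a2, Nr4a3 and Klf4 alone, and with an array left out the stars are those of Nr4a2 and Nr4a3 without young replicate 2.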

How the data were processed

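Satellite cell RNA of 3 young and 3 adult samples was hybridised to 1-colour Agilent arrays of 62976 spots, all 6 on 1 slide with a single scan, and neither slide nor scan forms a batch. The deposited intensity values are processed signals of Feature Extraction 10.7.3.1, as the file headers state. Per the file headers they are background-subtracted and detrended, with no scaling between arrays. The authors' deposited series matrix holds log2 values with a median of 7.56 in each column, within 0.000106 of normexp (offset 50) with quantile normalization.

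The 3671 controls were dropped, as were outlier-flagged spots unless all spots of the probe on that array were flagged. Spots of a probe were averaged as log2 of the processed signal, and each array's 75th percentile over probes was subtracted. A probe entered if 3 or more arrays had it well above background, and the brightest probe stood for a gene. Symbols were updated with the GRCm38.p6 annotation, where 26300 probes matched by accession, 2044 by current and 355 by older symbol. Groups were compared with limma 3.58.1 (lmFit, eBayes) in R 4.3.3, with the data.table package (version 1.17.8) and Benjamini-Hochberg adjustment over all genes, at 0.05. Where a group had no array with the probe above background, the fold is a lower bound, taken against the larger of the probe value and the weakest detected signal on each of its arrays. The number of arrays limits precision, and the fit was tested on simulated data.

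Members and lists were chosen with earlier results of these data known. Named are all members, up to 4 called genes of each pathway list with the smallest p (up to 2 where none was called), 2 of each marker list, and for each member the 2 genes most like it. Some genes that this rule names are not reported here. Pax7, Pdgfra, Crip1, Hspa5, Xbp1, Ern1, Itgam, Notch3, Col3a1 and Tek were named after their values were seen. Probe positions are those of the files (mm9), where exons and UTRs were not assigned here. Alternatives covered scaling, background, filter, probe choice, variance model, weights, blocks and each array left out. A comparison of protein sequences was not run.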

Additional observations from a re-analysis of the deposited data

How the results depend on the processing

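Of the 10 members, 3 passed as reported. Under limma 0 passed with median scaling, 5 with the percentile taken over probes above background on all arrays, 5 with normexp, 5 with trend and robust moderation, and 0 to 2 with an array left out. Of the 32084 genes, 3446 were called higher with median scaling, 7855 with that percentile, 8592 with normexp and 7603 with trend and robust moderation. As reported, 6403 were called higher. Over all genes the 9129 calls in both directions became 5505 with quantile normalization, 5194 with cyclic loess and 5932 with array row as a block. With an array left out they became 299 to 7681, although each of those fits had the same number of arrays. Median scaling turned Ddit3 to -0.34, Klf2 to -0.02, Klf6 to -0.14 and Ier2 to -0.21, and Atf4 ranged from -0.48 to 0.04 with an array left out, the positive value being that without adult replicate 3. Median scaling moved all members alike, by -0.54, and the causes of the other changes were not tested. The labels do not say whether the replicate numbers pair young with adult samples. Between same-numbered samples the deviations from the group means had correlations of -0.0014, -0.0934 and -0.142. Deviations of 3 arrays sum to 0 within a group, so these values cannot decide on a pairing. A fit that kept the replicate block gave 0 calls among members and 0 among genes by limma (12748 at an unadjusted p under 0.05). All arrays were on 1 slide, so the slide itself gave no block. Low signal over background limits Nr4a3 and the dimmer Nr4a2 probe.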
